A study of Homo sapiens with 10 samples.

Results

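CD276 was set beside 9 further ligands of the B7 and nectin families, to ask whether any of them was higher where CD276 had been lost. The 10 genes, CD276, CD274, PDCD1LG2, VTCN1, CD80, CD86, ICOSLG, HHLA2, NECTIN2 and PVR, were chosen by name, and each matched 1 of the 58050 Ensembl identifiers in the expression table. HCT116 is a human colorectal carcinoma cell line. The HCT116-WT group held 5 biological replicates of the parental cells, which carry CD276. The HCT116-CD276KO group held 5 biological replicates of cells that had received Cas9 protein with a guide RNA against CD276 and had been sorted for loss of the surface protein. Whether each replicate had its own flask is not given, so the SD and p-values may cover only the spread within a flask. All HCT116-CD276KO replicates came from 1 single cell clone, so effects of CD276 loss and traits particular to the clone cannot be told apart. A scrambled guide is named as the control of the editing step, but whether the HCT116-WT cells received it is not given in the sources used here. Polyadenylated RNA of the 10 samples was sequenced, and the values are TPM, a transcript level per unit of transcript length that sums to a common total in each library.

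B7 proteins are immunoglobulin-superfamily molecules on the surface of antigen-presenting cells and of many tumour cells, and they adjust the activity of T cells through receptors of the CD28 family. CD80 and CD86 bind CD28, which activates T cells, and CTLA-4, which restrains them. CD274 (PD-L1) and PDCD1LG2 (PD-L2) bind the inhibitory receptor PD-1, and ICOSLG binds the costimulatory receptor ICOS. CD276 (B7-H3) and VTCN1 (B7-H4) have receptors that are less well established, and HHLA2 binds TMIGD2 and KIR3DL3. The nectin-family proteins NECTIN2 and PVR (CD155) are adhesion molecules that engage the activating receptor CD226 and the inhibitory receptor TIGIT on T and NK cells.

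The guide RNA, with its protospacer in lower case and its PAM in capitals, is shown because it defines the lesion behind the comparison. It had 2 exact matches in CD276, and both lie in coding exons of a tandem repeat within the gene. The stretches around the matches, read from hg38 on the plus strand, are shown with the match and its PAM in capitals. Site 1 lies at chr15:73702542-73702564 in exon 3 and site 2 at chr15:73703946-73703968 in exon 5.
guide: ttcgtgagcatccgggatttCGG
site 1: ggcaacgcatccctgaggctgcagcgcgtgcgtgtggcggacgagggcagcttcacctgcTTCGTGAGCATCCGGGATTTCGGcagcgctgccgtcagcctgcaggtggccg
site 2: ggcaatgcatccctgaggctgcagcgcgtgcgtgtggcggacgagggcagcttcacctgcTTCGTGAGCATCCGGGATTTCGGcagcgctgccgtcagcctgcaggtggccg
The 2 stretches of 112 bases differ at 1 base and share an unbroken run of 106 bases that holds the match. Exons 3 and 5 each carry 339 coding bases and are 95.3% identical, with 16 differing bases. Of the 5 complete coding transcripts of CD276 in the annotation, 4 hold the first site and 3 hold the second. The expected cuts fall after coding base 383 and after coding base 1037 of the 1602 coding bases. Which bases were lost or gained in the clone was not measured by these values.

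CD276 (ENSG00000103855, hg38 chromosome 15, 73683966 to 73714514, plus strand) was read first as the check of the labels. Its levels in HCT116-WT libraries 1 to 5 were 49.3, 42.02, 53.61, 38.08 and 43.27 TPM. In HCT116-CD276KO libraries 1 to 5 they were 4.4, 7.42, 5.79, 4.79 and 4.89 TPM. Every HCT116-CD276KO library thus lay far below every HCT116-WT library, and in no library was the transcript at 0. The means were 45.3 ± 6.17 TPM and 5.46 ± 1.21 TPM (SD, n = 5 each), and the log2 fold change was -2.85 (95% interval -3.13 to -2.56) with an adjusted p of 1.39e-07 by limma with Benjamini-Hochberg adjustment. All fold changes were taken on log2(TPM + 1), where the added 1 shrinks the change of genes at a low level.

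Of the 10 genes, 5 averaged 1 TPM or more across the libraries and entered the test, which covered 13581 genes. They were CD276, NECTIN2, PVR, ICOSLG and CD274. Among the 4 tested ligands other than CD276, 0 had an adjusted p under 0.05, where 4.87% of all tested genes did, 0.781% as higher in HCT116-CD276KO cells and 4.09% as lower. At an unadjusted p under 0.05 there were 2 of the 4, PVR and ICOSLG, both with lower means in HCT116-CD276KO cells, where 21.9% of all tested genes reached that level and 17.6% did so as lower. None of the 4 was past both an adjusted p of 0.05 and 2-fold, as were 0.486% of all tested genes. None of the 4 had a higher mean in HCT116-CD276KO cells in the values as deposited, and the median log2 fold change of all tested genes was itself below 0, at -0.09.

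**Figure D1:**
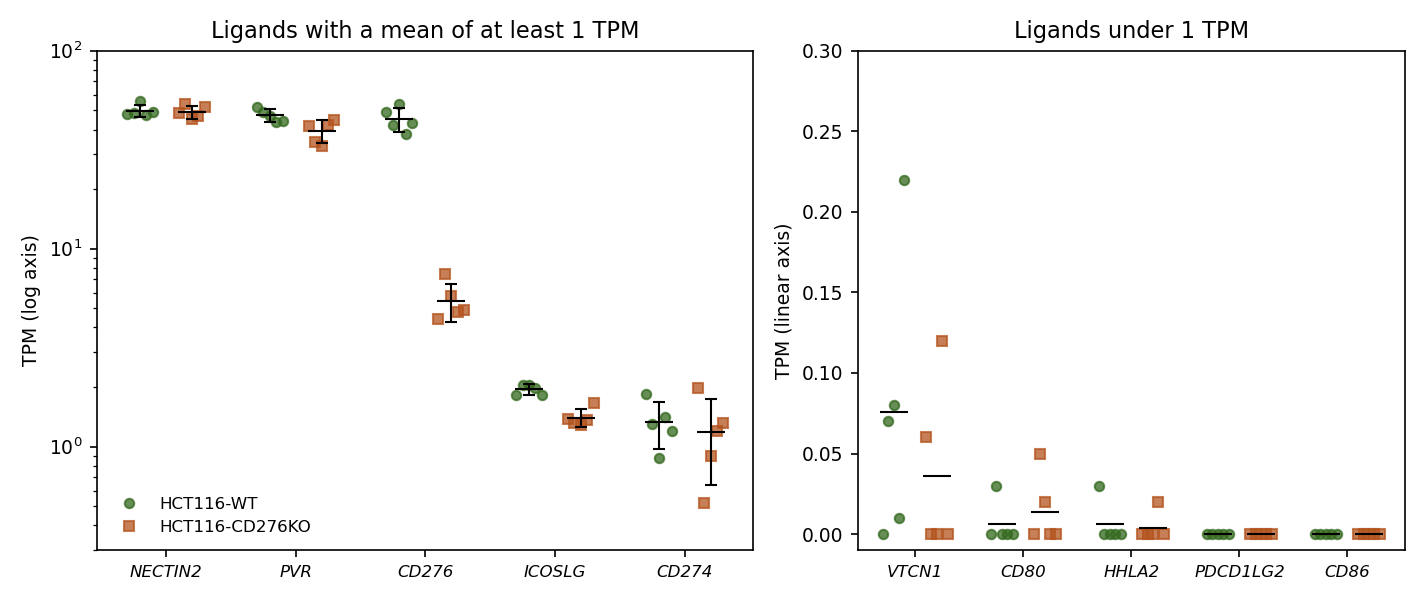
TPM of the 10 ligands in each of the 5 HCT116-WT libraries (circles) and 5 HCT116-CD276KO libraries (squares), on a log axis for the 5 ligands with a mean of at least 1 TPM and on a linear axis for the other 5; horizontal lines are means, and bars in the left panel are the SD. CD276 and ICOSLG are the ligands whose groups do not overlap, and CD276 has by far the larger gap.

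The nectin-family ligands were the most abundant of the 9. NECTIN2 (ENSG00000130202, chromosome 19, 44846175 to 44889223) is a homophilic and heterophilic adhesion protein and a ligand of PVRIG, TIGIT and CD226. Its levels were 48.04, 48.64, 55.77, 47.44 and 48.79 TPM in the HCT116-WT libraries and 48.22, 53.8, 44.98, 46.67 and 51.7 TPM in the HCT116-CD276KO libraries. The groups overlapped, with 4 of 5 HCT116-WT and 3 of 5 HCT116-CD276KO libraries inside the range of the other group. The means were 49.7 ± 3.42 TPM and 49.1 ± 3.62 TPM (SD, n = 5 each), and the log2 fold change was -0.02 with an adjusted p of 0.882 by limma. Its 95% interval, -0.17 to 0.13, corresponds to a fold between 0.887 and 1.10 on the TPM + 1 scale. The sign of this value turned to positive under median-of-ratios scaling (0.08), quantile normalization (0.07) and removal of the length and GC trends (0.07), with 0 of these past the threshold.

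PVR (ENSG00000073008, chromosome 19, 44643798 to 44666162), the poliovirus receptor and the main ligand of TIGIT, lies on the same chromosome and strand as NECTIN2. It measured 52.18, 48.88, 46.59, 43.72 and 44.22 TPM in the HCT116-WT libraries and 41.88, 34.62, 33.14, 42.38 and 44.61 TPM in the HCT116-CD276KO libraries. HCT116-CD276KO libraries 2 and 3 were the lowest of the 10, while library 5 lay within the HCT116-WT range. The means were 47.1 ± 3.50 TPM and 39.3 ± 5.10 TPM (SD, n = 5 each), a log2 fold change of -0.26 (95% interval -0.46 to -0.06). The adjusted p was 0.134 by limma, and the two-sided exact permutation test of 5 against 5 gave p = 0.0238. Without HCT116-CD276KO libraries 2 and 3 the difference was -0.13 with an adjusted p of 0.445 by limma.

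CD274 (ENSG00000120217, chromosome 9, 5450503 to 5470566) encodes PD-L1, the ligand most often targeted in checkpoint therapy. It was low in both groups, at 1.85, 1.3, 0.88, 1.42 and 1.2 TPM in the HCT116-WT libraries and at 1.99, 0.52, 0.9, 1.2 and 1.32 TPM in the HCT116-CD276KO libraries. Both the highest and the lowest value came from HCT116-CD276KO libraries, so their range enclosed that of the HCT116-WT libraries. The means were 1.33 ± 0.353 TPM and 1.19 ± 0.545 TPM (SD, n = 5 each), with a log2 fold change of -0.11 (95% interval -0.51 to 0.28) and an adjusted p of 0.725 by limma. The interval spans folds of 0.702 to 1.21 on the TPM + 1 scale, the widest of the 4 tested ligands. The direction rested on single libraries, since the difference was 0.01 without HCT116-CD276KO library 2 and 0.10 without libraries 2 and 3 (adjusted p = 0.838, limma), and 0.00 after removal of the length and GC trends.

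ICOSLG (ENSG00000160223, chromosome 21, 44215382 to 44241446, minus strand), the B7 ligand of ICOS, was the only ligand besides CD276 whose groups did not overlap, where 7.61% of all tested genes had no overlap and 6.19% were lower without overlap. Its levels were 1.83, 2.06, 2.06, 1.97 and 1.82 TPM in the HCT116-WT libraries and 1.38, 1.32, 1.28, 1.37 and 1.66 TPM in the HCT116-CD276KO libraries. Library 5 of the HCT116-CD276KO group came nearest to the HCT116-WT values. The mean went from 1.95 ± 0.118 TPM to 1.40 ± 0.150 TPM (SD, n = 5 each), a log2 fold change of -0.30 (95% interval -0.50 to -0.09) that missed the threshold with an adjusted p of 0.0972 by limma. The two-sided exact permutation test gave p = 0.00794, the smallest that 5 against 5 allows.

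The ICOSLG value is uncertain, because hg38 holds a near-identical second copy between 5022531 and 5036771 of chromosome 21 (ENSG00000277117), which GENCODE 44 marks as an artifactual duplication of ICOSLG. Reads from 1 gene could be split between both rows. The copy was listed at 2.62, 1.67, 2.9, 2.51 and 3.27 TPM in the HCT116-WT libraries and at 2.87, 2.25, 1.67, 2.04 and 2.82 TPM in the HCT116-CD276KO libraries, and these groups overlapped (log2 fold change -0.11, adjusted p 0.687, limma). Summed over both rows, the level was 4.54 ± 0.535 TPM in HCT116-WT and 3.73 ± 0.626 TPM in HCT116-CD276KO cells (SD, n = 5 each). The groups then overlapped, the log2 fold change was -0.23 (95% interval -0.48 to 0.01), and the adjusted p rose to 0.250 by limma.

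The 5 ligands under the filter on low values were at or close to 0, so none of them reached the level of CD274 in any library. VTCN1, an inhibitory B7 ligand of epithelia and tumours, was above 0 in 4 HCT116-WT libraries and 2 HCT116-CD276KO libraries, with a highest value of 0.22 TPM in HCT116-WT library 5 and of 0.12 TPM in HCT116-CD276KO library 4. CD80 was above 0 in 1 HCT116-WT library (0.03 TPM) and 2 HCT116-CD276KO libraries (0.05 and 0.02 TPM). HHLA2 was above 0 in 1 library of each group, at 0.03 TPM in HCT116-WT and 0.02 TPM in HCT116-CD276KO cells. PDCD1LG2, the neighbour of CD274 on chromosome 9 from 5510531 to 5571282, was listed at 0 in all 10 libraries, and so was CD86. When all 30818 genes above 0 TPM were tested, the adjusted p by limma was 0.686 for VTCN1, 0.782 for CD80 and 0.925 for HHLA2. The methods give only an average depth over the samples and TPM do not carry the depth of a library, so these values set no limit on how low the transcripts were.

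**Figure D2:**
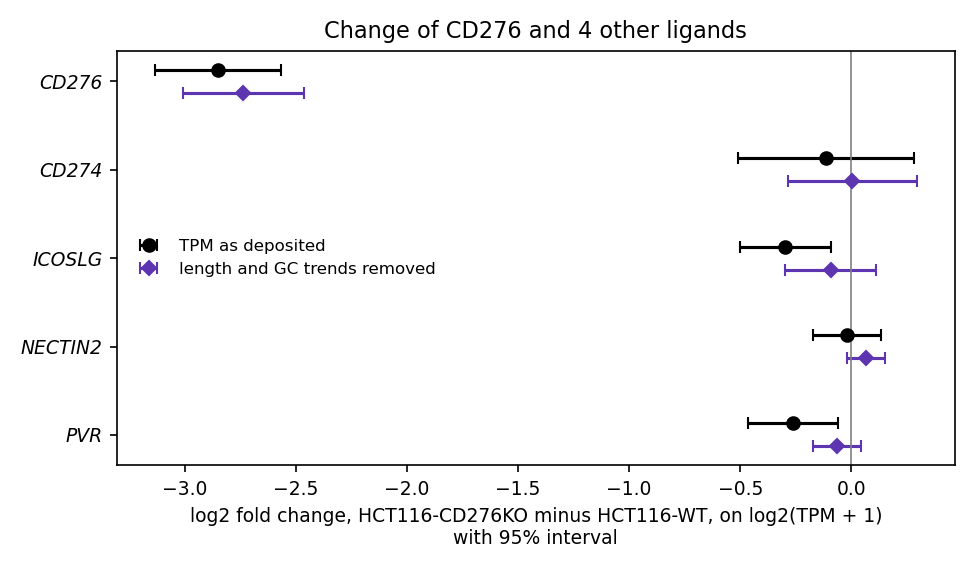
Log2 fold change (HCT116-CD276KO minus HCT116-WT, on log2(TPM + 1)) of CD276 and the 4 other tested ligands with its 95% interval, from the TPM as deposited (circles) and after the length and GC trends of each library had been taken out (diamonds). CD276 lies at -2.85 and -2.74, while the other ligands lie between -0.30 and 0.07.

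Several libraries carried a trend with transcript length, and the 2 ligands with the longest annotated transcripts, ICOSLG and PVR, were lowest in the libraries where it was most negative. The Spearman correlation between transcript length and a library's deviation from the mean over all libraries, across genes, lay between -0.09 and 0.43 in the HCT116-WT libraries. In the HCT116-CD276KO libraries it was 0.26, -0.52, -0.49, -0.07 and 0.32, so libraries 2 and 3 stood apart. These are the libraries with the lowest PVR and ICOSLG. Within HCT116-WT, ICOSLG did not follow the length trend, as it was at 2.06 TPM in library 3 (rho -0.09) and at 1.83 and 1.82 TPM in libraries 1 and 5 (rho 0.43 and 0.41). PVR was highest in library 1, at 52.18 TPM, but at 44.22 TPM in library 5 and 46.59 TPM in library 3. The like correlation with GC content was 0.607 in HCT116-WT library 3, 0.484 in HCT116-CD276KO library 2 and at most 0.023 in the others. The annotated transcript is 59.0% GC for ICOSLG and 52.1% for PVR. ICOSLG in HCT116-CD276KO libraries 1 and 5, whose rho was positive, still lay below every HCT116-WT library. The annotated transcript is 7078 bases long for ICOSLG and 5792 for PVR, against 2690 for NECTIN2, 3295 for CD276 and 3634 for CD274. After the length and GC trends were removed, the log2 fold change of PVR was -0.07 (95% interval -0.17 to 0.04) with an adjusted p of 0.432, and that of ICOSLG was -0.09 (95% interval -0.30 to 0.11) with an adjusted p of 0.557, both by limma. CD276 remained at -2.74 (95% interval -3.01 to -2.46) in the same fit. None of the 4 other ligands was called in it, where 9.64% of the genes tested were, 4.45% as higher and 5.19% as lower. What gave rise to the length and GC trends was not tested.

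**Figure D3:**
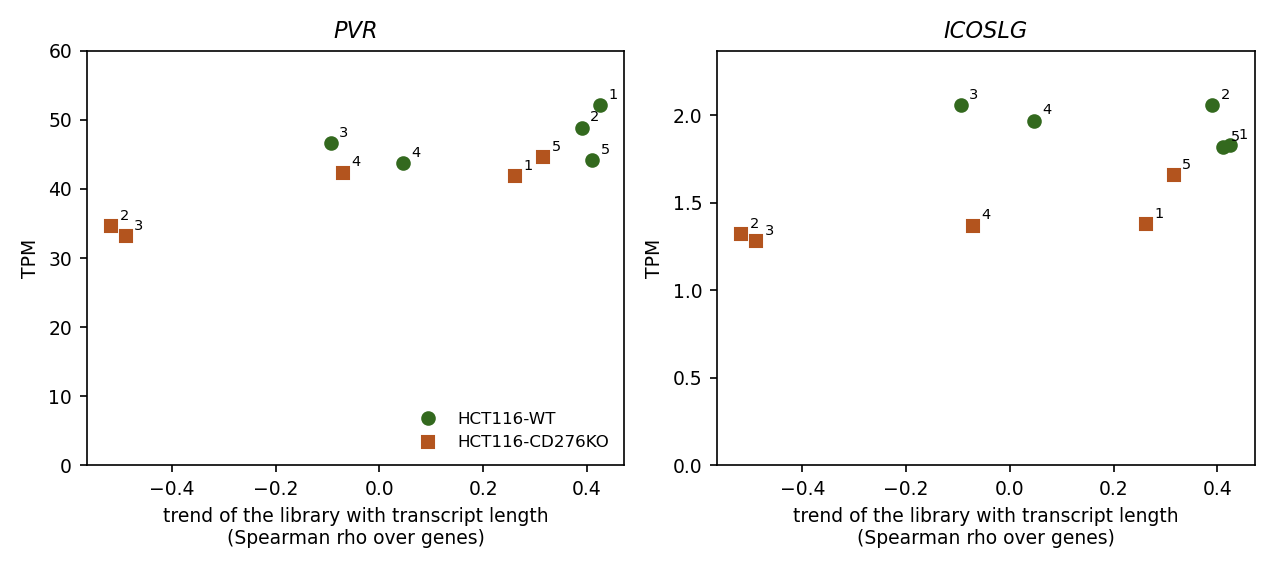
TPM of PVR and of ICOSLG (linear axes from 0) against each library's length trend (Spearman rho across genes), with library numbers beside the points for HCT116-WT (circles) and HCT116-CD276KO (squares). HCT116-CD276KO libraries 2 and 3 have the most negative trend and the lowest levels of both genes.

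By level per transcript length, the ligands of HCT116-WT cells formed a high and a low tier. NECTIN2 at 49.7 TPM, PVR at 47.1 TPM and CD276 at 45.3 TPM had overlapping ranges, so their order within the high tier is not resolved. About 25.9% of the tested genes were above CD276 in HCT116-WT cells. ICOSLG at 1.95 TPM and CD274 at 1.33 TPM followed, with ranges that overlapped each other by a narrow margin, and VTCN1 headed the rest at 0.076 TPM. In HCT116-CD276KO cells the order of the first 5 was the same, but the neighbours at the top no longer overlapped. Every library of NECTIN2 (44.98 to 53.8 TPM) was above every library of PVR (33.14 to 44.61 TPM). CD276 (4.4 to 7.42 TPM) lay between PVR and ICOSLG, overlapping neither, with the ICOSLG row taken alone. CD276 in HCT116-CD276KO cells was thus still above CD274 and this ICOSLG row in every library. Summed with its copy, ICOSLG was at 2.95 to 4.48 TPM in HCT116-CD276KO libraries. That range overlapped CD276, although CD276 was the higher within each library. In HCT116-WT libraries the same sum was 3.73 to 5.09 TPM, which did not overlap CD274.

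In the TPM as deposited, the summed transcript level of the ligands was lower in HCT116-CD276KO cells by more than CD276 alone. The 10 ligands together came to 145 ± 10.6 TPM in HCT116-WT and 96.5 ± 6.53 TPM in HCT116-CD276KO cells (SD, n = 5 each). Of this difference CD276 made up 39.8 TPM and the other 9 made up 9.18 TPM. The 9 summed to 103.93, 100.98, 105.38, 94.56 and 96.25 TPM in the HCT116-WT libraries and to 93.53, 90.31, 80.32, 91.76 and 99.29 TPM in the HCT116-CD276KO libraries. These sums overlapped, and the highest HCT116-CD276KO sum was within the HCT116-WT range. NECTIN2 and PVR carried nearly all of it, at 96.9 ± 4.72 TPM and 88.4 ± 6.55 TPM, and the other 7 ligands added 3.37 ± 0.257 TPM and 2.64 ± 0.613 TPM. The copy of ICOSLG, with means of 2.59 TPM in HCT116-WT and 2.33 TPM in HCT116-CD276KO cells, is not in these sums. Without HCT116-CD276KO libraries 2 and 3 the sum of the 9 was 94.9 ± 3.94 TPM (SD, n = 3), or 5.36 TPM below the HCT116-WT mean. Median-of-ratios scaling divides each library by a size factor, which was 1.01 to 1.084 in the HCT116-WT libraries. In HCT116-CD276KO libraries 1 to 5 it was 1.025, 0.9252, 0.8928, 0.983 and 1.023. The log2 fold change of PVR was -0.26 as deposited and -0.07 without the length and GC trends. The sums were not rescaled, and the part of such trends in the 9.18 TPM was not tested. CD276 was 31.0% ± 2.04 of the summed level in HCT116-WT cells and 5.69% ± 1.38 in HCT116-CD276KO cells (SD, n = 5 each).

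**Figure D4:**
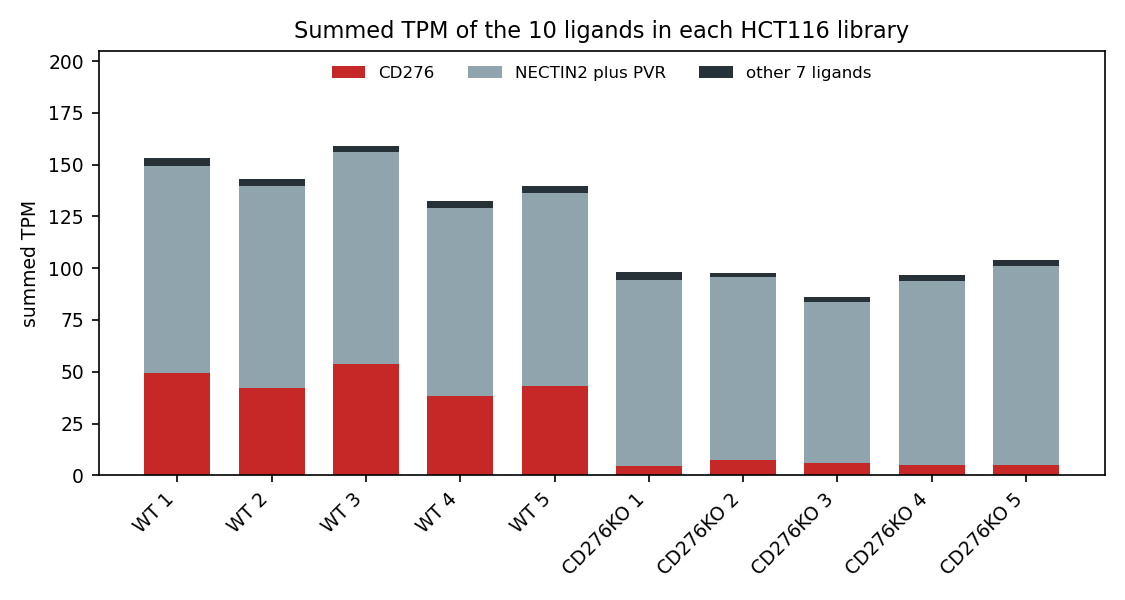
Summed TPM of the 10 ligands in each library, stacked from CD276 (bottom), NECTIN2 plus PVR (middle) and the other 7 ligands (top). The stacks of the HCT116-WT libraries reach 132.64 to 158.99 TPM and those of the HCT116-CD276KO libraries 86.11 to 104.18 TPM, and the middle segment does not grow where the CD276 segment shrinks.

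Related molecules outside the 10 were read from lists of genes with like functions. Of 14 B7-related and butyrophilin genes, 7 were tested and 0 passed in either direction, with a median log2 fold change of 0.01 beside -0.09 for all tested genes. VSIR, which encodes the inhibitory B7 homologue VISTA, is named here after its values were seen. It ranged from 14.6 to 17.4 TPM (median 16.75 TPM) in HCT116-WT cells and from 15.39 to 20.9 TPM (median 19.29 TPM) in HCT116-CD276KO cells, a log2 fold change of 0.19 with an adjusted p of 0.232 by limma. It passed the threshold as higher in HCT116-CD276KO cells under quantile normalization (0.32, adjusted p = 0.0359, limma) and after removal of the length and GC trends (0.35, adjusted p = 0.00144, and 0.0187 with the replicate block). The butyrophilins BTN2A1, BTN2A2 and BTN3A2, which take part in the sensing of phosphoantigens by gamma-delta T cells or belong to the same family, had log2 fold changes of -0.12, 0.01 and -0.17 without a call. BTN3A1 and BTN3A3 of the same family had higher means in HCT116-CD276KO cells, with log2 fold changes of 0.11 and 0.30 (adjusted p = 0.695 and 0.307, limma). BTN3A3, the largest of the list, was at 1.81 ± 0.633 TPM and 2.42 ± 0.495 TPM (SD, n = 5 each), and its groups overlapped.

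Of 13 other checkpoint ligands and enzymes, 6 were tested and 0 passed, with a median of 0.07. HLA-E and CD47 are likewise named after their values were seen. HLA-E, the ligand of the NK receptor NKG2A, was at 73.66, 73.34, 80.36, 71.27 and 73.65 TPM in HCT116-WT and at 92.41, 83.78, 74.91, 86.49 and 84 TPM in HCT116-CD276KO libraries, so that only HCT116-WT library 3 and HCT116-CD276KO library 3 crossed between the groups. Its log2 fold change was 0.18 with an adjusted p of 0.147 by limma. It passed the threshold under median-of-ratios scaling (adjusted p = 0.0248, limma) and quantile normalization (0.0356). It also passed in the length and GC correction (0.26, adjusted p = 0.0017, limma), and with the replicate block added to that (adjusted p = 0.0286). CD47, the signal that restrains phagocytosis by macrophages, had a log2 fold change of 0.16 (adjusted p = 0.378, limma), which passed only in the length and GC correction (0.30, adjusted p = 0.0156) and not in the same fit with the replicate block (adjusted p = 0.057). Without HCT116-CD276KO libraries 2 and 3 the log2 fold change was 0.26 for VSIR, 0.23 for HLA-E and 0.23 for CD47. Their adjusted p by limma was then 0.148, 0.0843 and 0.355, none past the threshold. LGALS3 (galectin-3) and NT5E, the ectoenzyme that makes adenosine, had values of -0.13 and -0.26 without a call. IDO1 was listed at 0 in every library.

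Among 7 other nectins and nectin-like genes 3 were tested, and 2 fell, where 4.09% of all tested genes were called lower. NECTIN3, an adhesion partner of NECTIN2 and PVR, was at 56.79, 51.18, 38.11, 53.03 and 58.5 TPM in HCT116-WT and at 30.68, 22.12, 26.72, 30.95 and 36.32 TPM in HCT116-CD276KO libraries. Its groups did not overlap, as was so for 7.61% of all tested genes, although HCT116-WT library 3 came close to the highest HCT116-CD276KO library. The log2 fold change was -0.79 (95% interval -1.10 to -0.49) with an adjusted p of 0.00792 by limma, and -0.66 (adjusted p = 8.88e-05) after the length and GC correction. NECTIN1, which binds other nectins at adherens junctions, went from 12.8 ± 0.530 TPM to 9.96 ± 1.22 TPM (SD, n = 5 each), with a log2 fold change of -0.34 and an adjusted p of 0.0432 by limma. That call was lost after the length and GC correction (-0.16, adjusted p = 0.0527) and without HCT116-CD276KO libraries 2 and 3 (-0.23, adjusted p = 0.142), whereas NECTIN3 kept its call there (-0.63, adjusted p = 0.044). CADM4 had means of 19.8 and 20.5 TPM without a call.

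The costimulatory TNF ligands gave 2 tested genes of 6 and 0 calls. TNFSF9 (4-1BB ligand) had a log2 fold change of 0.05 and TNFSF18 (GITR ligand) one of -0.49 with an adjusted p of 0.0785 by limma, which passed in the length and GC correction (-0.42, adjusted p = 0.0472) but not with the replicate block added to it (adjusted p = 0.0881). TNFSF4 (OX40 ligand), under the filter, was at 0.510 ± 0.101 TPM and 0.210 ± 0.0800 TPM (SD, n = 5 each) and was called lower when all 30818 genes above 0 TPM were tested (adjusted p = 0.0265, limma), a fit in which 1.47% of genes were called lower and 0.292% higher. Of 8 NKG2D ligands, the stress-induced molecules that NK cells recognise, 7 were tested and 0 passed. Their median was -0.16 beside -0.09 for all tested genes, and -0.11 beside 0.01 after the length and GC correction. As deposited 6 of the 7 were below 0, among them MICA (-0.29, adjusted p = 0.0760, limma) and MICB (-0.27, adjusted p = 0.119, limma).

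**Figure D5:**
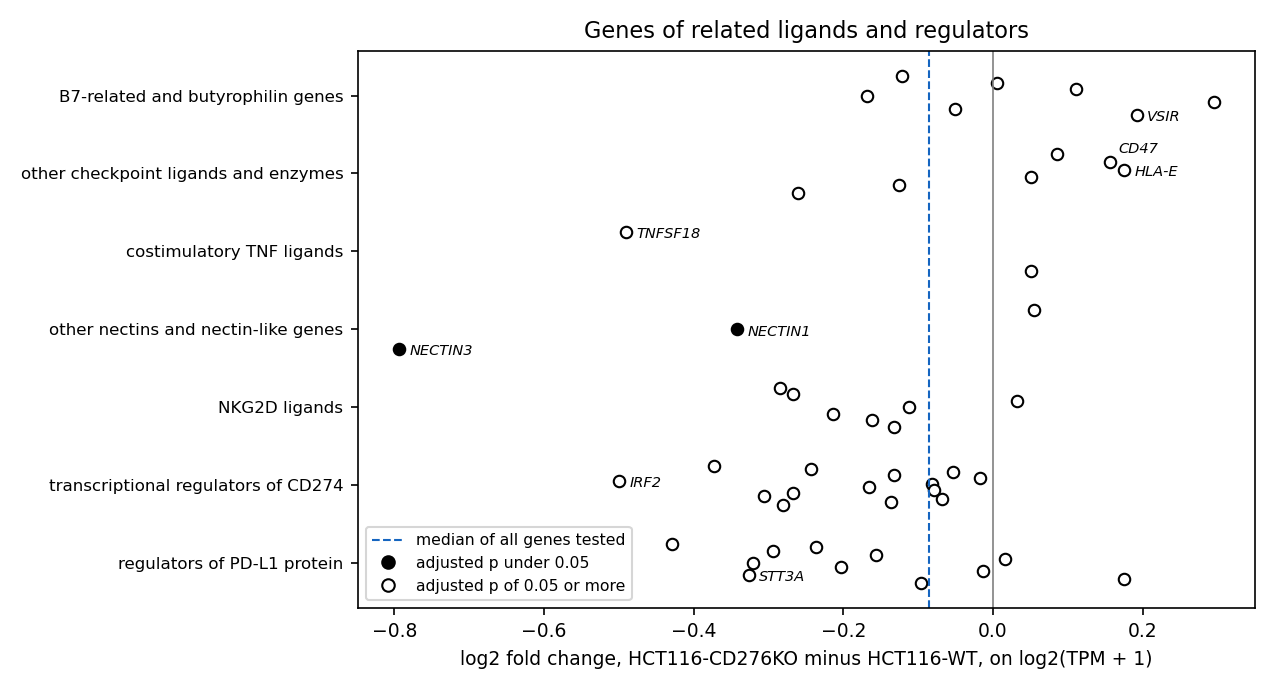
Log2 fold change (HCT116-CD276KO minus HCT116-WT, on log2(TPM + 1)) of each tested gene in 7 lists of related ligands and regulators, with filled points for an adjusted p under 0.05. The dashed line is the median of all 13581 tested genes at -0.09, and NECTIN3 and NECTIN1 are the filled points.

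CD274 responds to interferon signalling and to several transcription factors, and its protein is held at the surface by further regulators. All 14 listed transcriptional regulators of CD274 were tested and 0 passed. Each had a log2 fold change below 0, from -0.50 in IRF2 to -0.02 in IRF1, with a median of -0.15 beside -0.09 for all tested genes. The median became -0.05 after the length and GC correction, beside 0.01 for all genes in that fit. The interferon pathway kinases JAK1 and JAK2 had values of -0.08 and -0.17 without a call. Of the 11 regulators of PD-L1 protein, all were tested and 0 passed, with a median of -0.20 that became -0.05 after the length and GC correction. CMTM6, which protects PD-L1 from degradation, had a log2 fold change of -0.16 with an adjusted p of 0.494 by limma. STT3A, a subunit of the enzyme that attaches N-glycans, had one of -0.33 with an adjusted p of 0.0522, and -0.17 with an adjusted p of 0.0392 after the length and GC correction, which became 0.109 with the replicate block.

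The receptors of these ligands and the T, NK and B cell markers were at very low levels, while 1 myeloid marker was not. Of the 16 receptor genes 0 reached the filter, 15 stayed under 0.5 TPM in every library and 5, among them CTLA4, CD28 and ICOS, were listed at 0 throughout. The highest value was 0.79 TPM, for LAG3. The 6 T and NK cell markers summed to between 0.34 and 0.49 TPM in HCT116-WT and between 0.1 and 0.36 TPM in HCT116-CD276KO libraries, and the 3 B cell markers summed to at most 0.35 TPM. Of the 6 myeloid markers only CD68 was tested, at 13.2 ± 2.47 TPM in HCT116-WT and 9.58 ± 2.80 TPM in HCT116-CD276KO cells (SD, n = 5 each), which is above CD274 and ICOSLG in both groups (log2 fold change -0.45, adjusted p = 0.202, limma). The other 5 myeloid markers, CD14 among them, stayed under 0.5 TPM. Of the 6 fibroblast markers only COL1A1 was tested, at 5.83 to 8.84 TPM in HCT116-WT and 4.54 to 7.44 TPM in HCT116-CD276KO libraries (log2 fold change -0.35, adjusted p = 0.157, limma). The 5 endothelial markers summed to at most 0.65 TPM.

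Of 6 epithelial markers 5 were tested and all 5 fell in HCT116-CD276KO cells, where 4.09% of all tested genes were called lower. CDH1 (E-cadherin) had a log2 fold change of -1.07 (adjusted p = 0.00311, limma), followed by KRT8 at -0.42, KRT18 at -0.39, EPCAM at -0.35 and KRT19 at -0.29. After the length and GC correction all 5 were still called lower, where 5.19% of the genes in that fit were. Under median-of-ratios scaling only CDH1 of the 5 kept an adjusted p under 0.05, and without HCT116-CD276KO libraries 2 and 3 there were 3 that did. The keratins stayed abundant, with KRT8 at 1553 ± 110.4 TPM (SD, n = 5) in HCT116-CD276KO cells, while VIL1 was under the filter. The part of these differences in the ligand values was not tested.

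Around CD276 on chromosome 15, the 5 nearest tested genes on each side held 0 calls, where 4.87% of all tested genes were called. On the left were ARIH1, BBS4, ADPGK, NEO1 and NPTN, and on the right INSYN1, LOXL1-AS1, LOXL1, STOML1 and PML. Their log2 fold changes ran from -0.29 in ARIH1 to 0.38 in LOXL1, a collagen and elastin cross-linking enzyme, whose adjusted p was 0.148 by limma. NPTN, the nearest on the left, was at 58.6 ± 5.95 TPM and 55.6 ± 6.20 TPM (SD, n = 5 each). LOXL1 and LOXL1-AS1 overlap on opposite strands, and whether the quantification used strand is not given in the sources used here.

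Among the genes whose profile lay nearest to that of CD276, measured by the root mean square difference of log2(TPM + 1) values taken against the HCT116-WT mean over 10 libraries, were NRG1 (0.344), IL32 (0.375), ZBED2 (0.410) and GALNT3 (0.478). Only tested genes could be among the 5 nearest, so 5 of the 9 other ligands could not appear. The 4 tested ligands were not among them, which follows from their log2 fold changes of -0.30 to -0.02 against -2.85 for CD276. GALNT3, an enzyme of mucin-type O-glycosylation, was at 6.43 ± 1.29 TPM in HCT116-WT and 0.462 ± 0.203 TPM in HCT116-CD276KO cells (SD, n = 5 each). Since these genes were picked for their likeness, no test of it is given.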

How the data were processed

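The authors mapped single reads from strand-specific polyadenylated RNA libraries to hg38 with STAR 2.5.2b and quantified Ensembl 86 genes (GENCODE 25) with RSEM 1.3.0 and featureCounts 1.5.1. The values used here are the TPM that the authors deposited, with 2 decimals; which program gave them is not stated, their own limma/voom test used counts that were not analysed here, and the methods give an average depth over samples but none per library. The 13581 of 58050 genes that averaged 1 TPM or more were compared on log2(TPM + 1) in limma 3.58.1 (R 4.3.3) with a variance trend, and p-values were adjusted by Benjamini-Hochberg across the genes tested; a call is an adjusted p under 0.05. Two-sided exact permutation tests used scipy 1.17.1. The length and GC correction removed a loess trend (span 0.3) from each library for 13472 genes and centred it. Positions, transcript lengths and repeats came from GENCODE 44 on hg38. The members and lists were chosen with earlier results of these data known. Named were the members, up to 4 called genes of each list, 5 tested genes on each side of CD276 and the 5 nearest profiles; other genes, among them those given as examples from lists without a call, were named after their values were seen. Some values within this rule are not reported here. The test was checked on simulated data. Alternatives were a pseudocount of 0.1, no filter, a filter of 5 TPM, 2 other scalings, a robust variance model, a replicate block, the omission of each library, and, added after seeing the data, the summing of ICOSLG with its copy and the omission of HCT116-CD276KO libraries 2 and 3. The replicates are described as biological; whether each had its own flask is not given in the sources used here.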

Additional observations from a re-analysis of the deposited data

Results flagged for a closer look

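A library was listed here where its gap to the nearest of the other 4 exceeded 0.71 of the range of its group. Of 60 groups of 5 values examined, 6 did so, where chance gives about 1 in 20, or 3, for continuous normal values. That rate does not hold for groups mostly listed at 0, so the 2 counts cannot be compared directly. NECTIN2 in HCT116-WT library 3 was at 55.77 TPM with the next at 48.79 TPM, a gap of 0.838 of the range, and HLA-E was at 80.36 TPM in the same library with the next at 73.66 TPM (0.737). That library had the strongest trend with GC content (Spearman rho 0.607 across genes). The annotated transcripts of NECTIN2 and HLA-E are 60.8% and 55.1% GC, and the part of the trend in these values was not tested. ICOSLG in HCT116-CD276KO library 5 was at 1.66 TPM with the next at 1.38 TPM (0.737). The other 3 were single values above 0 in groups otherwise listed at 0, with a gap of 1.0 of the range. They were CD80 at 0.03 TPM in HCT116-WT library 2, HHLA2 at 0.03 TPM in HCT116-WT library 1 and HHLA2 at 0.02 TPM in HCT116-CD276KO library 4.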

How the results depend on the processing

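The count of ligands other than CD276 with an adjusted p under 0.05 was 0 in each of the 22 alternatives run (limma, 2 of 4 at an unadjusted p under 0.05 in the reported fit), and CD276 kept its call in all 20 of its own, at -3.04 to -2.74. The count of all called genes was 662 (106 higher, 556 lower). It was 378 with the replicate block, 1299 with the length and GC correction (600 higher, 699 lower), 339 without HCT116-CD276KO libraries 2 and 3, and 343 to 857 over the omissions of single libraries. The higher calls were 197 of 583 under median-of-ratios scaling and 253 of 638 under quantile normalization. The replicate numbers were not taken as pairs, since same-numbered libraries deviated together with r = -0.181 to 0.119 and only 1 of 5 HCT116-WT libraries correlated best with its own number. The block changed no call of a ligand, and of the other named genes with sensitivity values only NECTIN1 lost its call (adjusted p = 0.082, limma). Added to the length and GC correction, the block ended the calls of CD47, TNFSF18 and STT3A. CD274 reversed to 0.0047 in the length and GC correction with and without the block, to 0.0073 without HCT116-CD276KO library 2 and to 0.10 without libraries 2 and 3. NECTIN2 reversed to 0.079 under median-of-ratios scaling, 0.074 under quantile normalization and 0.066 in the length and GC correction with and without the block, and to 0.022 without HCT116-WT library 3 and 0.011 without HCT116-CD276KO library 3. Over the omissions of single libraries CD274 spanned -0.237 to 0.0073 and NECTIN2 -0.053 to 0.022. NECTIN1 lost its call in 14 of 20 alternatives, and NECTIN3 kept its in 20 of 20. The causes were not tested. TPM keep no depth, so counting error is not covered.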

Other observations

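Of the listed genes under the filter on low values, 3 were called when all genes above 0 TPM were tested in limma, each as lower in HCT116-CD276KO cells, where 1.47% of the 30818 genes were called lower. That share is over genes above and under the filter together, and the share for genes under it alone was not taken. The 3 genes are named after their values were seen, and their levels are near the floor. NECTIN4, an adhesion protein on chromosome 1, was at 0.394 ± 0.0723 TPM in HCT116-WT and 0.128 ± 0.0593 TPM in HCT116-CD276KO cells (SD, n = 5 each), with an adjusted p of 0.0111 by limma. CD96, a receptor for PVR on chromosome 3 from 111292719 to 111665750, was at 0.288 ± 0.0597 TPM and 0.074 ± 0.0760 TPM (SD, n = 5 each), with an adjusted p of 0.0357 by limma. The remaining gene was TNFSF4. ZBED2, a zinc finger gene between 111592900 and 111595346 on the strand opposite to CD96 and inside its bounds, was at 9.46 ± 0.825 TPM and 0.07 ± 0.0436 TPM (SD, n = 5 each). Whether ZBED2 overlaps an exon of CD96, and whether reads were shared between the 2 genes, was not tested. The use of strand in counting is not given.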
